A study of Mus musculus with 24 samples.

Results

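The genes described here are the 10 that end the light response of a photoreceptor or tie it to calcium: *Rgs9*, *Rgs9bp*, *Gnb5*, *Grk1*, *Rcvrn*, *Guca1a*, *Guca1b*, *Gucy2e*, *Gucy2f* and *Slc24a1*. They were chosen by name for their known role, with earlier results of these data known. All 10 were found by symbol among the 56748 genes of the deposited table. RNA sequencing covered the neural retina and the eye cup (RPE, choroid and sclera) of 12 mice, in 8 groups of 3 libraries, to ask how elevated PRDM13 changes gene expression in the eye. PRDM13-OE mice carried 1 copy of a knock-in at *Rosa26*, in which the EF-1α promoter, active in most cell types, drives the reverse tetracycline transactivator and the TRE3G promoter drives HA-tagged human *PRDM13*. Wildtype mice were their littermates, and all were on the C57BL/6J background and free of the rd1, rd8 and *Gnat2* mutations. Young adult mice of each genotype were either untreated or given doxycycline (dox) at 2 mg/mL and 10% sucrose, through their drinking water, over 72 hours. No dox-free sucrose group was analysed here, so dox and sucrose cannot be told apart. Because the promoter is not restricted to photoreceptors, a change in photoreceptor genes cannot be assigned to PRDM13 made within photoreceptors.

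A photon activates an opsin, the opsin activates the G protein transducin, transducin activates a phosphodiesterase, and the fall in cGMP closes cation channels. Shut-off runs through an opsin kinase (*Grk1*), which phosphorylates the active opsin so that arrestin can bind, and through the GTPase-accelerating complex of RGS9 (*Rgs9*), the atypical G protein beta subunit Gβ5 (*Gnb5*) and the membrane anchor R9AP (*Rgs9bp*), which speeds the return of transducin to its inactive form. Calcium falls when the channels close, because the rod exchanger (*Slc24a1*) keeps extruding it. Low calcium frees the kinase from recoverin (*Rcvrn*) and lets the guanylate cyclase-activating proteins GCAP1 (*Guca1a*) and GCAP2 (*Guca1b*) stimulate the retinal guanylate cyclases (*Gucy2e* and *Gucy2f*), which restore cGMP.

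Between 16034800 and 21513207 reads were counted on genes per retina (median 17624652) and between 15825059 and 24908314 per eye cup. Expression is given as CPM (reads of a gene relative to the library's counted reads) scaled by edgeR's trimmed mean of M-values, TMM, and as FPKM, which is per length, where levels of different genes are set side by side. The retinas carried the rod and cone markers of a photoreceptor tissue, with none of the 13 rod or 10 cone marker genes at 0 in all libraries. Among the retinas of wildtype mice with dox, the summed lens marker genes came to 123, 4917 and 11903 CPM, against 4.94 to 31.1 CPM in PRDM13-OE mice with dox, so some of these wildtype retinas carried RNA of lens genes. Leaving the crystallin genes out of the fit left the number of members called in the retina with dox at 9. The blood markers (hemoglobins and *Alas2*) summed to 0.709 to 1.18 CPM in the PRDM13-OE retinas with dox and to 21.6 to 77.8 CPM in the other retinas, and the endothelial markers to 109 to 131 against 215 to 279 CPM. Between the genotypes with dox, marker sums were also lower without overlap in PRDM13-OE retinas for bipolar cells (1106 to 1237 against 1344 to 1414 CPM), amacrine cells (1048 to 1070.3 against 1165 to 1233), horizontal cells (108 to 115 against 135 to 152), ganglion cells (709 to 741 against 743 to 886) and RPE and pigment cells (607 to 629 against 815 to 856), and higher for microglia (29.5 to 33.0 against 23.4 to 27.8). The part of these marker differences in the results was not tested. Mouse *Prdm13* differed by 0.22 ± 0.07 (log2, SE) between the genotypes with dox (edgeR's quasi-likelihood test, Benjamini-Hochberg adjusted p = 0.048). The human transcript was not analysed here, and whether its reads add to the mouse row was not tested.

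The genes lie on 6 chromosomes (GRCm39, as deposited). *Rgs9* is at chr11:109116181-109188955, *Rgs9bp* at chr7:35278418-35285007 and *Gnb5* at chr9:75213570-75253158. *Grk1* is at chr8:13455081-13471951, *Rcvrn* at chr11:67586152-67594159 and *Slc24a1* at chr9:64830143-64858889. *Guca1a* and *Guca1b* are neighbours on opposite strands, at chr17:47705483-47711509 and chr17:47696318-47703892, while the cyclases are apart, *Gucy2e* at chr11:69108943-69127862 and *Gucy2f* at chrX:140864156-140979927.

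In untreated wildtype retinas, *Rcvrn* was the most abundant of the 10 genes per length, at 1158 ± 37.7 FPKM (SD, n = 3). It was followed by *Guca1b* at 620.0 ± 18.4, *Slc24a1* at 318 ± 19.0, *Gnb5* at 219.9 ± 11.0 and *Grk1* at 162 ± 11.8 FPKM. Below these stood *Rgs9bp* at 108 ± 10.3, *Gucy2e* at 83.0 ± 3.20, *Rgs9* at 59.4 ± 0.668, *Gucy2f* at 21.2 ± 1.75 and *Guca1a* at 2.32 ± 0.309 FPKM. No neighbouring pair in this order overlapped between mice. This order rests on the gene lengths in the deposited table. That of *Rgs9* is 6390 bases, where its canonical GENCODE transcript has 2515 exon bases, and that of *Rgs9bp* is 6590 bases by both, so the order of these genes depends on the length used. The low level of *Guca1a* is uncertain, since 731 of the 873 exon bases of its main transcript are also exon of Gm50461, a readthrough gene on the same strand that was at 0 counts in all 12 retinas, and reads that fit both genes may not have been counted.

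In the retina with dox, PRDM13-OE mice had lower expression of 7 of the 10 genes and higher expression of 2 than wildtype mice, with 12.5% of the 20560 genes tested called in either direction, 7.51% lower and 5.01% higher. The falls were spread over every arm of the pathway: *Rgs9* of the GTPase-accelerating complex, the kinase *Grk1*, its inhibitor *Rcvrn*, both cyclase activators, the cyclase *Gucy2f* and the exchanger *Slc24a1*. *Gnb5* and *Gucy2e* rose, and *Rgs9bp* did not pass the test. The groups did not overlap for any of the 9 genes called (no overlap was seen for 15.4% of all genes tested on the lower side and 16.4% on the higher side). The median log2 fold change of the 10 genes was −0.53, and that of all genes tested was 0.01. In these bulk samples, fewer photoreceptors and less RNA per photoreceptor cannot be told apart.

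**Figure D1:**
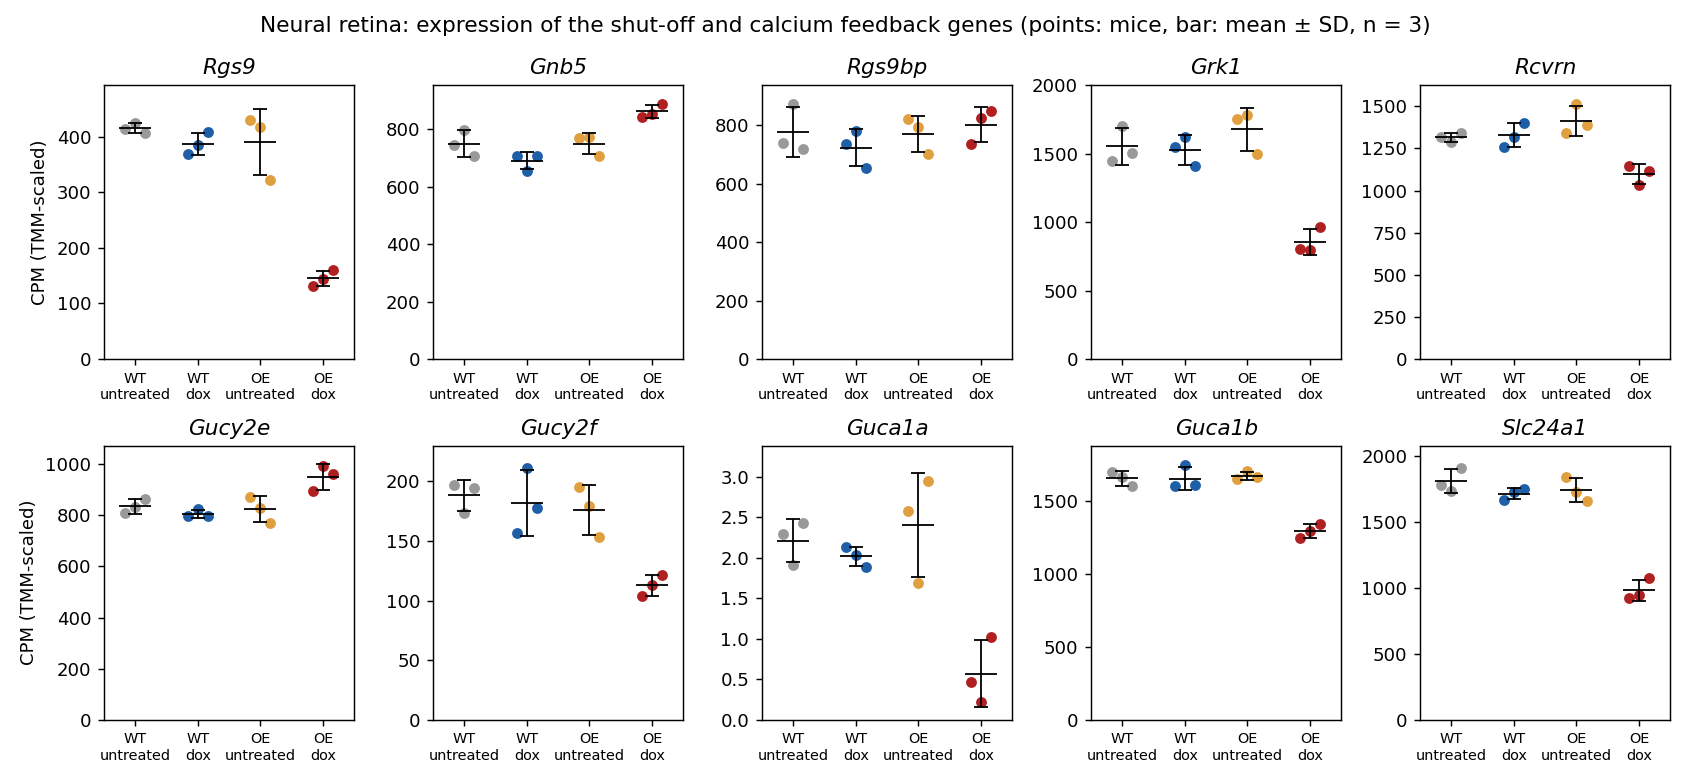
Expression of the 10 genes in the neural retina, as TMM-scaled CPM on axes that start at 0, in wildtype (WT) and PRDM13-OE (OE) mice, untreated or with dox; points are mice and bars the mean ± SD of 3. The PRDM13-OE mice with dox stand apart from the other groups in *Rgs9*, at 131 to 159 CPM against 323 or more, and in *Grk1*, at 795 to 963 CPM against 1409.7 or more.

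*Rgs9*, which encodes the subunit that binds transducin and speeds its GTP hydrolysis, had 131, 144 and 159 CPM in the PRDM13-OE retinas with dox and 368, 384 and 408 CPM in the wildtype retinas with dox. All 3 PRDM13-OE retinas lay far below the lowest wildtype one. The log2 fold change was −1.42 ± 0.07 (SE; adjusted p = 2.4e-07). *Gnb5*, without which RGS9 protein is unstable, had 844, 852 and 888 CPM in PRDM13-OE and 655, 707 and 708 CPM in wildtype retinas, and all 3 PRDM13-OE retinas were higher (log2 fold change 0.31 ± 0.04, adjusted p = 0.00080). *Rgs9bp*, the anchor that holds the complex on the disc membrane, had 736, 823 and 848 CPM against 654, 735 and 781 CPM. Its groups overlapped, and the difference of 0.14 ± 0.06 was not past the test (adjusted p = 0.18), though it was with libraries scaled by their size alone (0.23, adjusted p = 0.027). Of the 3 partners of this complex, *Rgs9* thus fell while *Gnb5* rose.

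*Grk1*, the photoreceptor opsin kinase, had 795, 806 and 963 CPM in the PRDM13-OE retinas with dox and 1409.7, 1550.2 and 1626 CPM in wildtype, with every PRDM13-OE retina below every wildtype one. It fell by 0.85 ± 0.07 on the log2 scale (adjusted p = 1.2e-05). *Rcvrn*, the calcium sensor that holds the kinase back in the dark, had 1032, 1114 and 1145 CPM against 1262, 1319 and 1402 CPM, also without overlap, and fell by less (0.28 ± 0.05 on the log2 scale, adjusted p = 0.0035), a fall that was not seen when libraries were scaled to their rod genes (0.07). *Slc24a1*, the exchanger that removes calcium from the rod outer segment, had 928, 949 and 1077 CPM against 1671, 1727 and 1752 CPM, and the lowest wildtype retina was well above the highest PRDM13-OE one. Its log2 fold change was −0.81 ± 0.05 (adjusted p = 2.2e-06).

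Of the cyclases, *Gucy2f* (GC-F) had 104, 113 and 122 CPM in the PRDM13-OE retinas with dox and 157, 178 and 212 CPM in wildtype, and it fell by 0.69 ± 0.10 on the log2 scale (adjusted p = 0.00060). *Gucy2e* (GC-E), the more abundant cyclase, was higher in all 3 PRDM13-OE retinas, at 895, 960.4 and 994 CPM against 797, 798 and 824 CPM (0.23 ± 0.04, adjusted p = 0.0053). The cyclase pair thus moved in opposite directions. *Guca1b*, the activator GCAP2, had 1249, 1292 and 1339.7 CPM against 1605, 1609 and 1748 CPM, with no overlap, and fell by 0.36 ± 0.04 on the log2 scale (adjusted p = 0.00016). *Guca1a*, the activator GCAP1, was counted with only 4, 8 and 19 reads in the PRDM13-OE retinas and 32, 37 and 38 in the wildtype ones. Its groups did not overlap, but the log2 fold change of −1.81 ± 0.41 (adjusted p = 0.013) rests on these few reads and on the uncertain counting of this gene. Without mouse 1 of the PRDM13-OE group its adjusted p was 0.051, whereas the other 8 called genes kept their call and direction without any 1 of the 6 retinas. The log2 fold change of *Guca1a* ran from −2.54 to −1.42 over these 6 fits.

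With a cutoff of 1 on the log2 scale added, the members called were *Rgs9* and *Guca1a*, and 1.5% of all genes were called lower by that rule. The other changes were smaller than 2-fold.

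The upstream sequences of *Rgs9*, *Grk1*, *Gucy2f* and *Gucy2e* are shown because these genes, which changed in the retina with dox, are the well-counted members that held a match to 1 of 3 motifs of photoreceptor regulators. The motifs searched on both strands, in the 250 bases before the start of the GENCODE vM39 canonical transcript in GRCm39, were TAATCC (CRX and OTX proteins), TGCTGA (NRL, part of its site) and AAGTCA (NR2E3, part of its site). Capitals mark the matches, each on the strand opposite to the gene. *Rgs9* (minus strand) spans chr11:109189026-109189274, *Grk1* (plus strand) chr8:13454831-13455080, *Gucy2f* (minus strand) chrX:140979998-140980106 and *Gucy2e* (minus strand) chr11:69127871-69128120. Each ends at the start of that transcript, except that for *Rgs9* the base next to the start, which lies in an exon of another transcript of the gene, is left out. The *Gucy2f* stretch is cut short upstream, where it meets an exon of another transcript of the gene.
Rgs9: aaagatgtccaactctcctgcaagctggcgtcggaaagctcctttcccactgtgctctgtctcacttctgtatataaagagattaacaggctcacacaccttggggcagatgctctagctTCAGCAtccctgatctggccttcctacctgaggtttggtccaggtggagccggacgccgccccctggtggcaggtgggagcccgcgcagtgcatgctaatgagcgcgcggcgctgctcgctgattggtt
Grk1: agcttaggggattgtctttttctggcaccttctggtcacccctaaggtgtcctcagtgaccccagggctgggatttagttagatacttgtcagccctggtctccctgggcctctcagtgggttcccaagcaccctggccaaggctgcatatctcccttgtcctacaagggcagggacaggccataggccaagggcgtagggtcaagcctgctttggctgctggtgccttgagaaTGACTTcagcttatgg
Gucy2f: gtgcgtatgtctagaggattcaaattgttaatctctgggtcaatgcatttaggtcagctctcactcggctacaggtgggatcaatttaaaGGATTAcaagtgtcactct
Gucy2e: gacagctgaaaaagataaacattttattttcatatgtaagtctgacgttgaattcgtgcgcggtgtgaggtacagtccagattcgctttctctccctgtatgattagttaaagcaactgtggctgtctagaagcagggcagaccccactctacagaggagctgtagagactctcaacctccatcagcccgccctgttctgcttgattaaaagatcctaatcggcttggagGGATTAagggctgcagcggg
The cyclases, which moved in opposite directions, each held the CRX motif at nearly the same distance, beginning 19 bases before the start in *Gucy2f* and 20 in *Gucy2e*. The NR2E3 motif in *Grk1* began 16 bases and the NRL motif in *Rgs9* 130 bases before the start. *Guca1a* held a CRX motif beginning 79 bases before its start, and the remaining 5 members held none of the 3 motifs in this window. In all, 3 of 10 members held the CRX motif, 1 the NRL motif and 1 the NR2E3 motif, and among the 21770 protein-coding genes searched the shares were 7%, 14.8% and 12.4%. These matches describe letters in a window and not bound sites. The *Rgs9* window lies within exons of Gm39441, a noncoding gene on the other strand that also covers 122 of the 2515 exon bases of *Rgs9* and was not analysed here. The strand setting of the counting is not given in the sources used here, so reads of the pair cannot be told apart over that stretch.

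Beside these genes, the activation steps of the rod and cone cascade changed unequally in the same comparison. Of 9 rod activation genes, 6 fell and 3 did not pass the test, with a list median of −0.15 on the log2 scale. Among these falls were the rod channel subunit *Cnga1* (−0.48 ± 0.05), *Gnat1*, rod transducin alpha (−0.43 ± 0.05), and the channel subunit *Cngb1* (−0.16 ± 0.05). Of 9 cone activation genes, 7 fell, 1 rose and 1 did not pass the test (median −1.02). Cone transducin alpha *Gnat2* (−1.85 ± 0.06), its beta subunit *Gnb3* (−1.82 ± 0.05), the cone channel subunit *Cnga3* (−1.61 ± 0.16) and the cone opsin *Opn1mw* (−1.41 ± 0.14) fell the furthest. The cone gene that rose was *Pde6c*, the cone phosphodiesterase (1.31 ± 0.09), named after its value was seen.

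Of 8 other shut-off and calcium genes, 5 fell and 3 did not pass the test (median −0.39). They were led by cone arrestin *Arr3* (−1.96 ± 0.10), followed by *Rd3*, a regulator of the cyclases (−0.64 ± 0.07), phosducin *Pdc*, which binds transducin beta-gamma (−0.54 ± 0.04), and rod arrestin *Sag* (−0.48 ± 0.08). The 3 calmodulin genes were those not past the test. Of 24 family relatives tested (other RGS, G protein beta, GRK, neuronal calcium sensor, guanylate cyclase and exchanger genes), 1 fell and 1 rose (median −0.07). They were the exchanger *Slc24a4* (−0.78 ± 0.08) and the calcium sensor *Hpcal4* (0.27 ± 0.05).

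**Figure D2:**
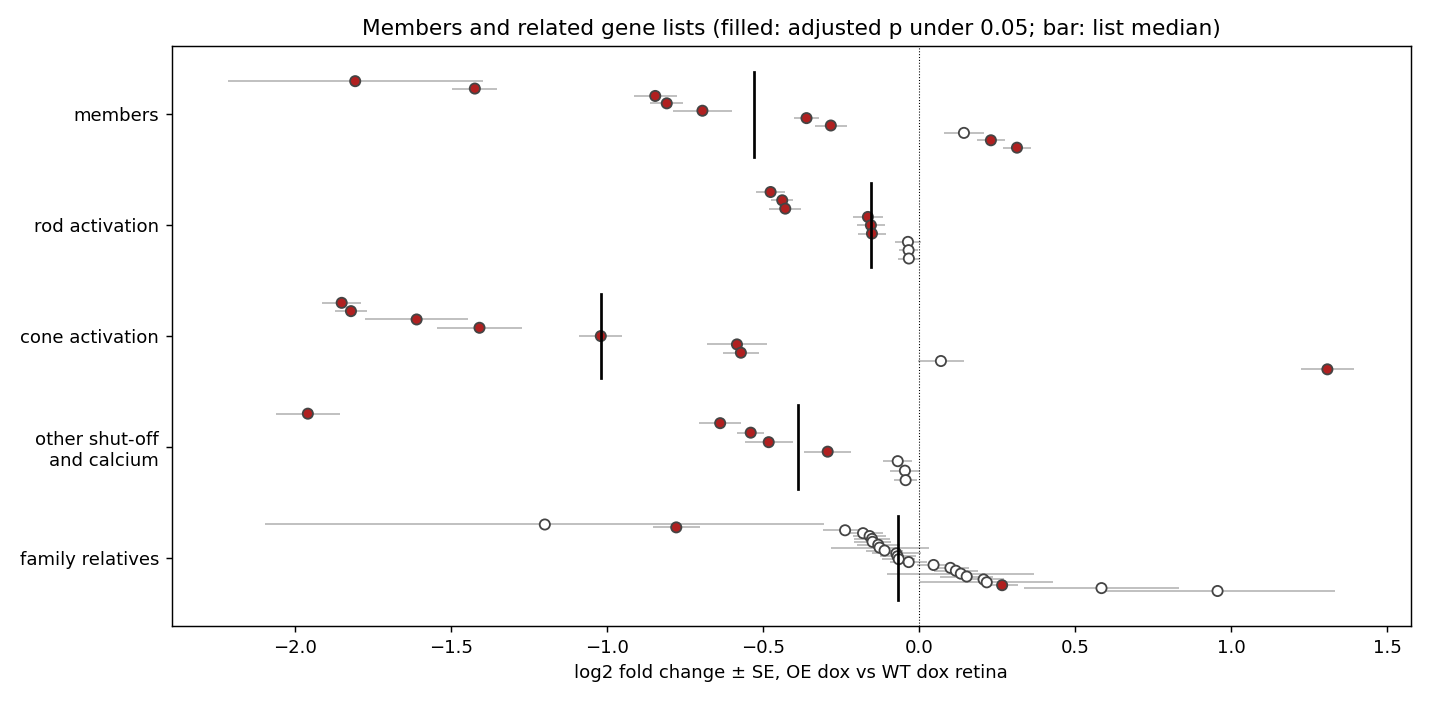
Log2 fold changes ± SE (horizontal axis) of PRDM13-OE over wildtype mice in retinas with dox, 1 point per gene, for the 10 members and the 4 related lists; filled points have an adjusted p under 0.05 and the vertical bars are list medians. The medians run from −1.02 for the cone activation genes over −0.53 for the members to −0.07 for the family relatives.

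The summed rod transcripts were lower in the PRDM13-OE retinas with dox: the 9 rod activation genes summed to 50224 to 56429 CPM, against 65384 to 67818 CPM in wildtype. The 10 cone markers summed to 818 to 887 against 1511 to 1567 CPM, while 4 genes of photoreceptor nuclei summed to 1556 to 1610 against 1599 to 1611 CPM. These 4 did not move alike in their mean FPKM, which were 302 against 322 for *Crx*, 99.8 against 108 for *Neurod1*, 45.4 against 40.8 for *Otx2* and 0.861 against 2.08 for *Prdm1*. When each library was scaled to its summed rod activation genes, which moved the median of all genes to 0.36, *Rcvrn* (0.07, adjusted p = 0.43) and *Guca1b* (−0.01, adjusted p = 0.93) were no longer called, and 9603 of all genes were called higher and 545 lower, against 1030 and 1545 with TMM and 2175 and 1007 with library size alone. *Rgs9* (−1.07), *Grk1* (−0.50), *Slc24a1* (−0.46), *Gucy2f* (−0.34) and *Guca1a* (−1.47) were still lower, and *Gnb5* (0.67), *Gucy2e* (0.58) and *Rgs9bp* (0.50, adjusted p = 3.1e-05) were higher on that scale. *Rcvrn* and *Guca1b* thus changed about as much as the rod activation genes, and the other falls were larger.

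Dox in wildtype mice, which shows what dox and sucrose do without the transgene, changed 0 of the 10 genes, and between the untreated genotypes, which shows what the knock-in does without dox, 0 differed. In each of these comparisons 0 members had an unadjusted p under 0.05 with edgeR (9.32% and 3.76% of all genes did), and DESeq2 called 0. The background was low, at 0.00485% of 20631 genes called for dox in wildtype mice and 0.00484% of 20668 for the untreated genotypes. Without mouse 3 of the wildtype group with dox, 184 genes were called for dox in wildtype mice, still with 0 of the members. The log2 fold changes lay between −0.13 and 0.02 for dox in wildtype mice and between −0.09 and 0.12 for the untreated genotypes, the ends being those of *Guca1a*, *Rcvrn*, *Gucy2f* and *Guca1a*. The SE of *Guca1a* was 0.22 and 0.26 in these comparisons, so a fall of the size of that in *Rcvrn* would not have been detectable for it, and the SE of the other 9 genes lay between 0.04 and 0.10. For each of the 10 genes the groups overlapped in both comparisons, whereas 7.92% and 6.44% of all genes did not overlap on the lower and higher side for dox in wildtype mice, and 5.18% and 4.45% for the untreated genotypes.

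Within PRDM13-OE mice, 7 of the 10 genes were lower with dox than without, where 2.96% of 20603 genes were called lower. The PRDM13-OE retinas with dox are also in the comparison with wildtype mice, so these comparisons are not independent. *Rgs9* had 323, 417 and 431 CPM without dox, of which the retina at 323 CPM stood below the others but still above every retina with dox (−1.43 ± 0.10, adjusted p = 2.8e-06). *Grk1* had 1496, 1755 and 1783 CPM without dox (−0.98 ± 0.08, adjusted p = 1.2e-05), and *Slc24a1* had 1664, 1734 and 1847 CPM (−0.83 ± 0.06, adjusted p = 5.1e-06). *Gucy2f* (−0.64 ± 0.09), *Guca1b* (−0.37 ± 0.05), *Rcvrn* (−0.37 ± 0.06) and *Guca1a* (−2.05 ± 0.44) also fell. The groups did not overlap for any of the 7, as was the case for 9.95% of all genes on the lower side, and 2 of them, *Rgs9* and *Guca1a*, were past a cutoff of 1 (0.621% of all genes). *Gnb5* (0.20 ± 0.05, adjusted p = 0.053) and *Gucy2e* (0.20 ± 0.06, adjusted p = 0.080) did not pass, although neither overlapped between the groups (10.8% of all genes did not overlap on the higher side), and DESeq2 called both higher, as it did 2.24% of all genes. *Rgs9bp* stood at 0.05 ± 0.07 (adjusted p = 0.81). The 9 rod activation genes summed to 50224 to 56429 CPM with and 64821 to 71720 CPM without dox, and the cone markers to 818 to 887 against 1566 to 1671 CPM. Other marker sums without overlap were higher with dox for Müller glia (5101 to 5389 against 4302 to 5030.0 CPM) and microglia (29.5 to 33.0 against 23.2 to 24.4), and lower for genes of photoreceptor nuclei (1556 to 1610 against 1642 to 1703), amacrine (1048 to 1070.3 against 1085 to 1190.1), horizontal (108 to 115 against 126 to 151) and ganglion cells (709 to 741 against 754 to 828), endothelial cells (109 to 131 against 219 to 268) and blood (0.709 to 1.18 against 28.3 to 64.5). Their part in these values was not tested. *Guca1a* lost its call without mouse 1 with dox (adjusted p = 0.081), mouse 2 with dox (0.069) or mouse 3 without dox (0.061), and *Gucy2e* gained one without mouse 1 without dox (0.043).

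The interaction of genotype and dox, fitted over all 12 retinas, tests whether the genotypes differed more with dox than without. It was past the test for 8 of the 10 genes, 7 lower and 1 higher, where 1.83% of 22538 genes were called lower and 1.19% higher. Of the 7 lower genes, *Rgs9* stood at −1.33 ± 0.13 (adjusted p = 8.9e-06), *Grk1* at −0.95 ± 0.12 (adjusted p = 9.4e-05) and *Slc24a1* at −0.76 ± 0.08 (adjusted p = 3.3e-05). *Rcvrn* (−0.38 ± 0.08), *Guca1b* (−0.37 ± 0.06), *Gucy2f* (−0.59 ± 0.14, adjusted p = 0.031) and *Guca1a* (−1.92 ± 0.49, adjusted p = 0.043) were lower too. Past a cutoff of 1 were *Rgs9* and *Guca1a* (0.515% of all genes lower by that rule). *Gnb5* was the higher one, at 0.32 ± 0.08 (adjusted p = 0.033), and *Gucy2e* at 0.25 ± 0.08 did not pass (adjusted p = 0.098), nor did *Rgs9bp* at 0.16 ± 0.12 (adjusted p = 0.60). *Gnb5*, *Gucy2f* and *Guca1a* were near the threshold, and their calls held in 4, 6 and 2 of the 12 fits that each left out 1 retina. The other 5 calls, *Rgs9*, *Grk1*, *Slc24a1*, *Rcvrn* and *Guca1b*, held in all 12. The count was 5 without mouse 1 or mouse 2 of the PRDM13-OE group with dox, mouse 2 of the wildtype group with dox or mouse 2 of the untreated wildtype group, and 6 or 7 without any other retina. With the replicate number as a block, 6 genes were called, without *Gnb5* (adjusted p = 0.059) and *Gucy2f* (adjusted p = 0.052).

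**Figure D3:**
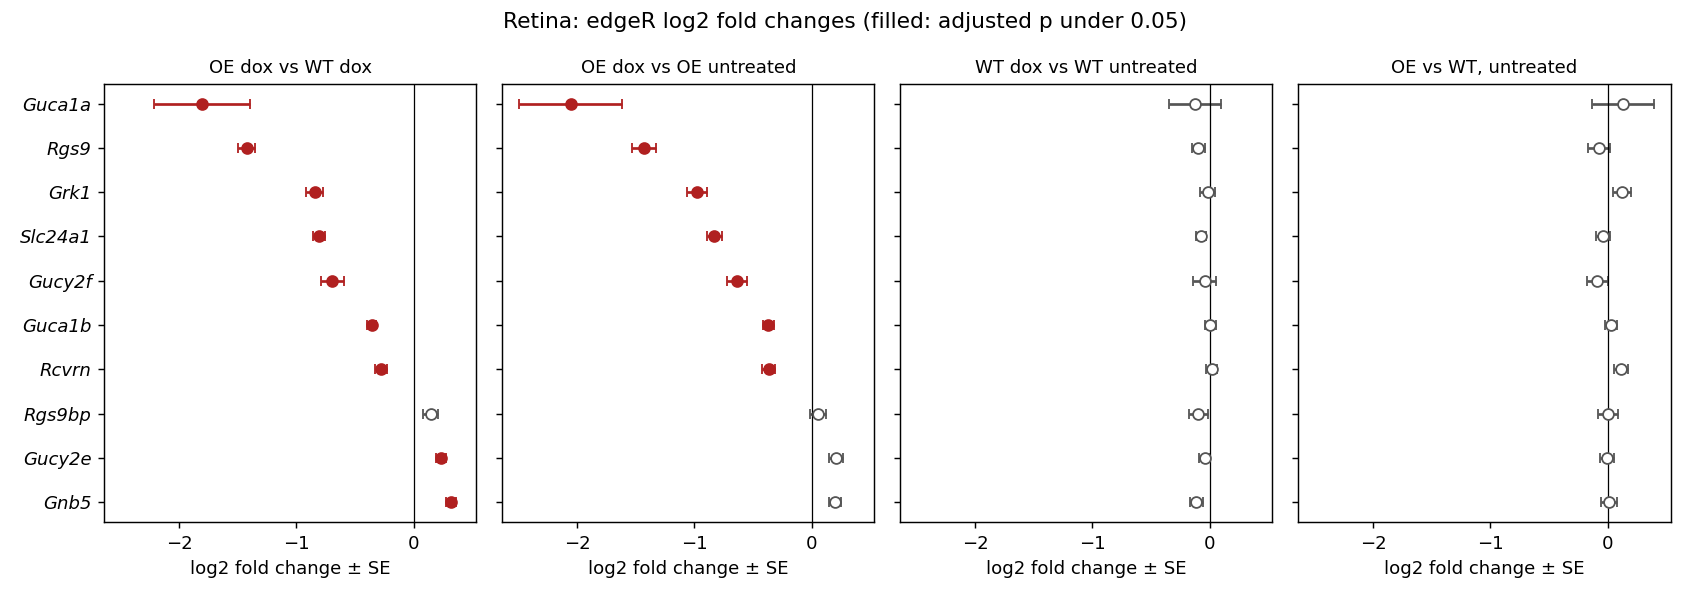
Log2 fold changes ± SE of the 10 genes (edgeR, horizontal axis) in the 4 pairwise comparisons of the retina; filled points have an adjusted p under 0.05. Both panels that involve PRDM13-OE mice with dox run from about −2 to 0.3, with *Rgs9* at −1.42 and −1.43, and in the other panels every gene lies between −0.13 and 0.12.

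The eye cup, which should hold no photoreceptors, gave lower counts for these genes, down to 0 to 25 reads per library for *Guca1a*. In untreated wildtype mice all 10 were higher in the retina than in the eye cup, by 1.96 to 3.04 on the log2 scale, where 29% of 21979 genes were called higher. Both tissues came from the same 3 mice, a pairing that this fit did not use. With the replicate number as a block all 10 calls stayed. *Rcvrn* averaged 245 FPKM in these eye cups, *Gnb5* 55.9 and *Rgs9* 9.73 FPKM. The rod activation genes varied with them: they summed to 22521, 3263 and 11153 CPM in the 3 untreated wildtype eye cups, and *Grk1* had 371, 43.2 and 148 CPM in the same order of mice. Scaled to these rod genes, 0 of the 10 members differed between the tissues (the values then lay between −0.96 for *Slc24a1* and 0.88 for *Gucy2f*).

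In the eye cups with dox, the log2 fold changes between PRDM13-OE and wildtype were negative for all 10 genes (median −1.21, against 0.05 for all genes), but edgeR called 0. Of all 21758 genes 0.0184% were called, 4 members had an unadjusted p under 0.05, as did 8.24% of all genes, and DESeq2 called 2 members, *Rgs9* and *Gucy2f*, and 0.34% of all genes lower. *Rgs9* had 17.7, 23.0 and 38.5 CPM in PRDM13-OE and 119, 129 and 165 CPM in wildtype eye cups, with no overlap (−2.32 ± 0.31, adjusted p = 0.27). *Grk1* (−1.82 ± 0.62), *Gucy2f* (−1.77 ± 0.40) and *Slc24a1* (−1.55 ± 0.45) also did not overlap, as was the case for 8.46% of all genes on the lower side. For the remaining 6 genes the groups overlapped, with log2 fold changes from −1.71 ± 1.02 for *Guca1a* to −0.03 ± 0.57 for *Gnb5*. Marker sums lower without overlap in the same PRDM13-OE eye cups were those of blood (12.4 to 14.3 against 238 to 559 CPM), endothelial cells (66.5 to 143 against 185 to 211), bipolar cells (417 to 826 against 964 to 1022) and lens (14.8 to 431 against 689 to 3319), and their part in these values was not tested.

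These values moved with 1 library. Mouse 3 of the PRDM13-OE group had the highest value of its group for all 10 genes, such as 672 CPM of *Gnb5* against 128 and 216, and its rod activation genes summed to 34418 CPM, against 5535 and 11373 in the other PRDM13-OE eye cups and 22993 to 44472 in wildtype. Without it, 6 members and 6.91% of all genes were called lower, the members being *Rgs9* (−2.67), *Grk1* (−2.75), *Gucy2f* (−2.26), *Slc24a1* (−2.20), *Guca1b* (−1.73) and *Rcvrn* (−1.65). Scaled to the rod activation genes with all 6 libraries, *Rgs9* was at −1.03 ± 0.76 (adjusted p = 0.27) and *Gnb5* at 0.94 ± 0.77.

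Dox in wildtype mice went with higher values of all 10 genes in the eye cup (median 1.46), of which 0 were called by edgeR, as were 0% of 21799 genes. At an unadjusted p under 0.05 stood 7 members and 29.9% of all genes, and DESeq2 called 6, and 10.7% of all genes, higher. The groups did not overlap for 7 members, against 21.4% of all genes on the higher side. Without mouse 1 of the untreated group, whose rod activation sum was the highest of its group, 6 members and 9.36% of all genes were called higher, the members being *Slc24a1*, *Grk1*, *Gucy2e*, *Rgs9bp*, *Rgs9* and *Gucy2f*. The rod activation genes were also higher, from 3263 to 22521 CPM without to 22993 to 44472 CPM with dox, while the RPE and pigment markers went from 23855 to 37069 CPM to 8514 to 17740 CPM. The inner retina markers were higher with dox too, without overlap: bipolar cells summed to 964 to 1022 CPM with against 521 to 794 without dox, amacrine cells to 637 to 773 against 376 to 478, horizontal cells to 44.4 to 75.6 against 1.52 to 28.2 and ganglion cells to 351 to 458 against 63.5 to 213. The members and the rod genes thus moved together here, with medians of 1.46 and 1.39 on the log2 scale, and the part of the tissue makeup in this was not tested. Between the untreated genotypes, 0 members were called and 0 had an unadjusted p under 0.05 (0% of 21588 genes called, 1.87% at that unadjusted p), and DESeq2 called 0. Without mouse 1 of the untreated PRDM13-OE group, 298 genes were called, still with 0 of the members. Within PRDM13-OE mice, dox changed 0 members (0.0139% of 21604 genes called), DESeq2 called 0, and 1 had an unadjusted p under 0.05 (4.14% of all genes), and that gene, *Rgs9*, had 61.3, 66.4 and 76.2 CPM without dox, with no overlap (4.94% of all genes on the lower side; −1.36 ± 0.32, adjusted p = 0.97).

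**Figure D4:**
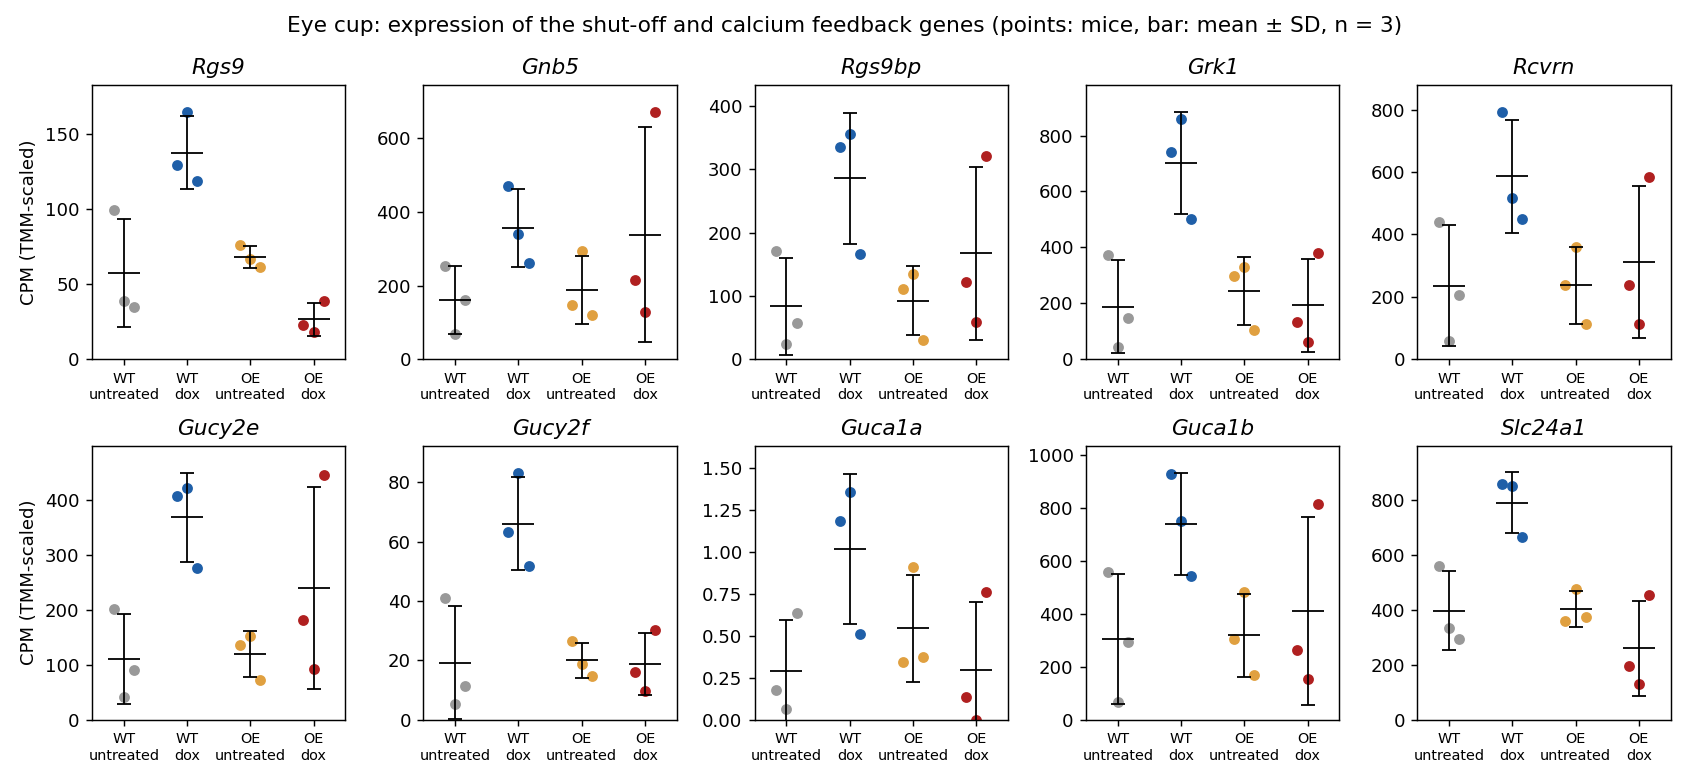
Expression of the 10 genes in the eye cup, as TMM-scaled CPM on axes that start at 0; points are mice and bars the mean ± SD of 3 per group. Mouse 3 of the PRDM13-OE group with dox is the highest point of its group in every panel (672 CPM for *Gnb5*), and in *Rgs9* the PRDM13-OE eye cups with dox, at 17.7 to 38.5 CPM, lie below all others except 1 untreated wildtype eye cup at 34.8 CPM.

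A count of 1 gene per 100 counts of another in the same library does not depend on how the libraries are scaled. These ratios were chosen after the data were seen and pair genes that had moved by different amounts, so they are given as a description, with no test. In the retina with dox, *Rgs9* came to 15.6, 16.9 and 17.9 per 100 *Gnb5* in PRDM13-OE and 52.0, 57.6 and 58.7 in wildtype mice. In the eye cup it came to 5.73, 10.6 and 13.9 against 27.4, 45.3 and 48.5. The ratio was thus lower in PRDM13-OE mice in both tissues, at 0.30 times the wildtype mean in the retina and 0.25 times in the eye cup.

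*Gucy2f* per 100 *Gucy2e* came to 11.4, 11.6 and 12.7 against 19.7, 22.2 and 25.7 in the retina. In the eye cup it came to 6.76, 8.95 and 10.5 against 15.5, 18.9 and 19.7. *Grk1* per 100 *Rcvrn* averaged 77.9 ± 8.08 against 116 ± 13.0 (SD, n = 3) in the retina and 58.7 ± 5.44 against 124 ± 38.1 in the eye cup, and *Rgs9* per 100 *Rgs9bp* came to 17.5, 17.9 and 18.8 against 49.2, 50.1 and 62.3 in the retina and averaged 20.3 ± 9.10 against 51.9 ± 17.1 in the eye cup. The genotypes did not overlap in any of these 8 comparisons, which share mice and in part genes and so are not separate observations. How often other gene pairs do not overlap was not tested. In untreated retinas of both genotypes *Rgs9* came to 45.7 to 57.7 per 100 *Gnb5*, near the wildtype retinas with dox. The untreated eye cups varied more: *Rgs9* per 100 *Rgs9bp* ran from 58.2 to 166 in wildtype and from 49.3 to 202 in PRDM13-OE mice. *Grk1* per 100 *Rcvrn* ran from 71.6 to 84.2 in the untreated wildtype eye cups, below the 93.6 to 167 of those with dox, so this ratio also moved without the transgene.

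**Figure D5:**
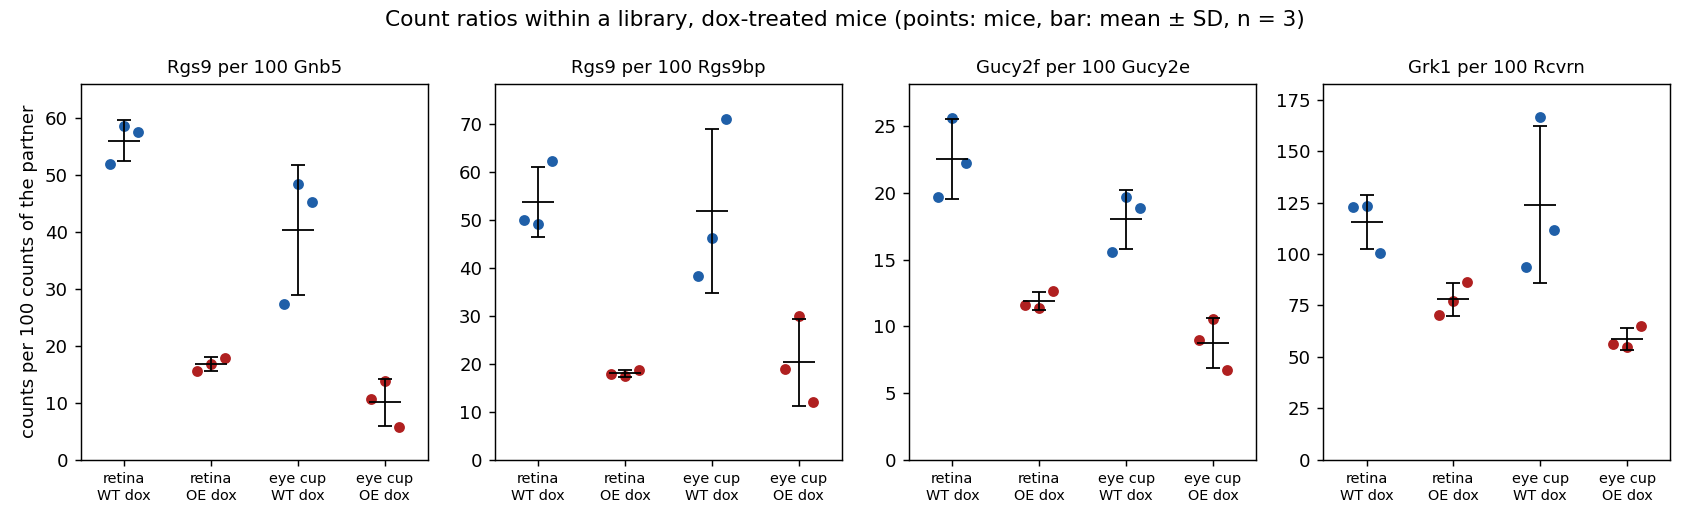
Counts of 1 gene per 100 counts of its partner in the same library, in mice with dox, on axes that start at 0; points are mice and bars the mean ± SD of 3 per group and tissue. In all 4 panels the PRDM13-OE mice lie below the wildtype mice of the same tissue, for example at 15.6 to 17.9 against 52.0 to 58.7 *Rgs9* per 100 *Gnb5* in the retina.

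Across the 12 retinas, the gene most like each member among 11847 searched, by Pearson's r of log2(CPM + 1), was *Rp1* for *Slc24a1* (r = 0.99), *Adipor1* for *Rgs9* (0.99), *Cds1* for *Grk1* (0.98), *Pdzd2* for *Guca1b* (0.98), *Fhip1a* for *Guca1a* (0.97) and *Lrit3* for *Gucy2f* (0.97). It was *Etnppl* for *Gnb5* (0.96), *Tmem35a* for *Rcvrn* (0.95), *Tmem230* for *Gucy2e* (0.93) and *Arl16* for *Rgs9bp* (0.88). These correlations are a description. For every member except *Rgs9bp*, the PRDM13-OE retinas with dox lay apart from all other retinas, a split that enters these correlations, while *Rgs9bp* showed no such split.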

How the data were processed

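Neural retina and eye cup RNA was prepared from both tissues of 12 mice of both sexes, 3 per group, and sequenced on an Illumina instrument after poly-T selection. The submitters' processing notes name CASAVA and HISAT2 and the build GRCm39, without versions. The counting tool, the annotation release and the strand setting are not given in the sources used here, and the labels name both directional and non-directional libraries. The authors deposited raw read counts per gene and FPKM values for each of the 24 libraries, with gene positions and lengths. The denominators of the deposited FPKM values followed DESeq2 size factors over the 24 libraries to within 0.0409%. A further 60 columns hold the authors' own 12 comparisons (mean normalized counts, log2 fold changes, p-values and adjusted p-values) and were not used. No pair of libraries was identical.

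Counts were tested with edgeR 4.0.16 (R 4.3.3; quasi-likelihood F test, TMM factors) on the 2 groups compared, or on all 12 retinas for the interaction, over genes whose counts in the libraries of the fit summed to 10 or more. P-values were adjusted by Benjamini-Hochberg over all genes tested, and an adjusted p under 0.05 was called. Adjusted p-values in the text are from this test unless another is named, errors are SE for log2 fold changes and SD otherwise. The 10 members, the related gene lists and the tests were chosen with earlier results of these data known. All members are named, plus up to 4 genes per list with the largest called change, and the most similar gene of each member. The values of 1 rod activation gene that this rule would name are not reported here. Alternatives were DESeq2 1.42.0, library size alone, no filter, edgeR's filterByExpr, robust fitting, crystallins left out, scaling to the summed rod activation genes, a shared fit of all 12 libraries of a tissue, a cutoff of 1 on the log2 scale, a replicate block and leaving out each library. Between groups of 1 tissue, same-numbered mice did not deviate together in the retina (r from −0.09 to 0.08). In the eye cup r was larger and of either sign (−0.36 to 0.41). The numbers were taken as names only. Retina and eye cup of 1 number came from the same mouse (r from 0.03 to 0.06). Promoter windows and overlaps came from GENCODE vM39 (GRCm39), in which 56017 of the 56748 gene identifiers were found.

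On data simulated from the retina pair (20177 genes), the test recovered 88 of 100 genes changed by 1 and 100 of 100 changed by 2 on the log2 scale, with 21 false calls. On data simulated from the eye cup pair (21185 genes) it recovered 0 and 68 of 100, with 7 false calls. Figures were drawn with matplotlib 3.10.9.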

Additional observations from a re-analysis of the deposited data

Results flagged for a closer look

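In the retina, the log2 difference between the genotypes was not the same with dox as without for 8 of the 10 genes, by the interaction term fitted over 12 retinas (edgeR's quasi-likelihood test, adjusted over all genes), which called 1.83% of all genes lower and 1.19% higher. The genotype difference with dox minus that without was −1.332 for *Rgs9*, −0.9542 for *Grk1*, −0.7552 for *Slc24a1* and −1.919 for *Guca1a*. It was −0.5928 for *Gucy2f*, −0.384 for *Rcvrn*, −0.3735 for *Guca1b* and 0.3158 for *Gnb5*, the only one of the 8 that was positive. The calls of *Gnb5*, *Gucy2f* and *Guca1a* held in only 4, 6 and 2 of the 12 fits without 1 retina, and those of *Gnb5* and *Gucy2f* were lost with the replicate number as a block.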

How the results depend on the processing

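Between 8 and 10 members were called in the retina between the genotypes with dox under every alternative, apart from the cutoff of 1 on the log2 scale, which left 2 members there, 2 in PRDM13-OE mice with against without dox and 2 in the interaction. DESeq2 called 9, no filter and library size alone 10 (with *Rgs9bp*), scaling to the rod genes 8 (without *Rcvrn* and *Guca1b*, and with *Rgs9bp*), and with the replicate block 9 were called. Within PRDM13-OE mice, where 7 were called, DESeq2, library size alone, no filter, robust fitting and the fit of all 12 retinas each called 9 (with *Gnb5* and *Gucy2e* higher), scaling to the rod genes 8 (these and *Rgs9bp* higher, without *Rcvrn* and *Guca1b*), and filterByExpr, leaving out crystallins and the replicate block 7. In the interaction, where 8 were called, DESeq2, library size alone and no filter called 9 (with *Gucy2e*), filterByExpr and leaving out crystallins 8, robust fitting 7 (without *Gucy2f*) and scaling to the rod genes 7 (with *Gucy2e* and *Rgs9bp*, without *Rcvrn*, *Guca1b* and *Gucy2f*). The replicate block left 6 in the interaction and changed no call of a member in the other comparisons. Leaving out 1 retina gave 8 or 9 members between the genotypes with dox, 6 to 8 within PRDM13-OE mice and 5 to 7 in the interaction. Scaling to the rod genes, which moved the median of all genes to 0.36 in the retina with dox and to −3.09 in the comparison of the tissues, changed the sign of *Rcvrn* in the former (0.0712) and of *Rgs9* (−0.0937), *Gnb5* (−0.51) and *Slc24a1* (−0.96) in the latter. None of these values was called on that scale, and 0 of 10 members were called between the tissues. A change of sign between values called under neither setting was not taken as a reversal.

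In the eye cup, DESeq2 called 2 members between the genotypes with dox and no filter called 1 (*Rgs9*, adjusted p = 0.044), and leaving out 1 library gave 0 to 6. For dox in wildtype mice DESeq2 called 6, and leaving out 1 library gave 0 to 6. The tissue comparison kept 8 to 10 without 1 library: *Guca1b* was lost without the retina of mouse 2 and, with *Rcvrn*, without the eye cup of mouse 3. In these fits the log2 fold changes lay between 1.63 (*Gnb5*) and 4.32 (*Gucy2f*), against 1.96 to 3.04 with all libraries.

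Over all genes, scaling to the rod genes called 9603 genes higher and 545 lower in the retina with dox, against 1030 and 1545, and without mouse 2 or 3 of the PRDM13-OE group 1504 and 1685 were called. With 3 mice a group, and spread in eye cup rod content, the eye cup test had little reach. On the simulated eye cup data it recovered 0 of 100 changes of 1 and 68 of 100 changes of 2 on the log2 scale. *Guca1a* had only 4 to 51 counts per retina.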
